A study of Sus scrofa with 7 samples.

Results

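Of the 29510 rows in the gene tables of this study, 4188 stand for transcripts that the authors' processing placed outside the Ensembl gene annotation of the pig. These rows, called unannotated loci here, were taken from the identifier alone, which carries a running number in place of an Ensembl gene, so neither counts nor direction entered the choice. The other 25322 rows are annotated genes. The tables give for each locus the chromosome, start, end and strand in the pig assembly Sscrofa10.2, the summed length of its exons and, where one was matched, the name of a Pfam protein domain. Loci are named below by their position in that assembly.

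Transcripts outside an annotation are of several kinds that a count table cannot separate by itself. Some are long noncoding RNAs, transcripts without a protein product that are often made in few cell types and often lie beside the genes of transcription factors. Some are coding genes, or missing ends of coding genes, that a draft annotation left out, and some start in retroviruses or LINE elements, which early embryonic cells are known to transcribe.

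Total RNA was sequenced after rRNA depletion, with directional libraries, from 7 porcine cell lines and 1 library per line. The 3 pXEN lines (passages 26, 26 and 23) are extra-embryonic endoderm cells, the lineage that lines the yolk sac, derived from the inner cell mass of parthenogenetic blastocysts, which form without sperm. They were kept in LCDM medium, which holds LIF, the GSK3 inhibitor CHIR99021, (S)-(+)-dimethindene maleate, minocycline and the ROCK inhibitor Y27632. The 2 lines of naïve-like embryonic stem cells (nESCs, passages 21 and 22) were kept in LBX medium with FGF, LIF, CHIR99021, the MEK inhibitor PD0325901, the TGFβ receptor inhibitor SB431542 and doxycycline. The 2 lines of primed embryonic stem cells (pESCs, both at passage 20) are labelled as converted from naïve-like cells and grew with activin A, bFGF, EGF and LIF. All were grown on mouse feeder cells, MEFs for the pXEN cells and nESCs and STO cells for the pESCs. Each line counts as 1 replicate of its type. In bulk RNA, fewer cells of a type and less RNA per cell cannot be told apart.

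The libraries held between 10408164 and 12995720 counts on the listed rows, so that 3 counts, the floor of detection used here, correspond to between 0.231 and 0.288 CPM, counts scaled to a common library total. This floor covers counting error only. GATA4, a transcription factor of extra-embryonic endoderm, had 4828, 4436 and 5392 counts in the pXEN lines and at most 2 in any ESC line. SOX2 had 1633 to 2729 counts in the ESC lines and 0, 30 and 0 in the pXEN lines, whereas POU5F1, which pluripotent cells are known for, had at most 5 counts in any library. The pluripotency markers did not share 1 direction. Of 15 tested rows, 8 were higher and 5 lower in pXEN cells than in nESCs, and NANOG had 177, 60 and 166 counts in the pXEN lines, 0 and 2 in the nESC lines and 21 and 22 in the pESC lines. Line 2 of the pXEN cells stood apart from the others. The summed FPKM, fragments scaled to gene length and library total, of 10 fibroblast genes without vimentin was 18.6, 256 and 21.7 in the pXEN lines, 39.5 and 48.9 in the nESC lines and 71.1 and 103 in the pESC lines, so line 2 stood above every other library. Most of this sum in line 2 came from COL1A1 and COL3A1, with an FPKM of 144 and 77.5. The fibroblast genes did not share 1 direction. TWIST1 had 0.192 in line 2 and 15.9 to 28.1 in the ESC lines. DCN had 1.40 in line 2 and 18.3 and 38.8 in the pESC lines. Line 2 also had 4037 counts of AFP, a gene of extra-embryonic endoderm, against 60 and 37 in lines 1 and 3. Vimentin (VIM), an intermediate filament gene, had an FPKM of 684 to 920 in the ESC lines and of 9.36, 58.6 and 11.0 in the pXEN lines. Counts are therefore given line by line.

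The unannotated loci were shorter than annotated genes and were mostly spliced. Their listed length ranged from 200 to 24881 bases, with a median of 898 bases and quartiles of 435 and 1999 bases, and the median of annotated genes was 1311 bases. In 3155 loci (75.3%) the listed length was smaller than the span on the genome, so these had at least 1 intron. The strands were nearly balanced, with 2101 loci on the plus and 2087 on the minus strand. A Pfam domain was listed for 928 of the spliced loci (29.4%) and for 105 of the 1033 unspliced ones. The longest locus (chr3:144709479-144764853, minus strand) had 1320, 1049 and 1410 counts in the pXEN lines, 1544 and 1267 in the nESC lines and 792 and 852 in the pESC lines. A second long one beside it on the same strand (chr3:144765917-144787322, 21279 bases) had no count in any library.

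Relative to annotated genes, unannotated loci were most frequent on unplaced sequences. On sequences that Sscrofa10.2 does not place on a chromosome there were 791 of them (18.9%), against 9.72% of the annotated genes. This corresponds to 32.1 loci per 100 annotated genes on unplaced sequences and 16.5 over the whole table. Among the chromosomes, 11, 10 and 8 had the highest ratios, of 24.9, 23.9 and 20.1 per 100 annotated genes. The X chromosome had 9.64 and the Y chromosome 7.69 per 100 annotated genes, and 1 locus each lay on the Y chromosome and on the mitochondrial genome. These ratios describe the table and were not tested.

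**Figure D1:**
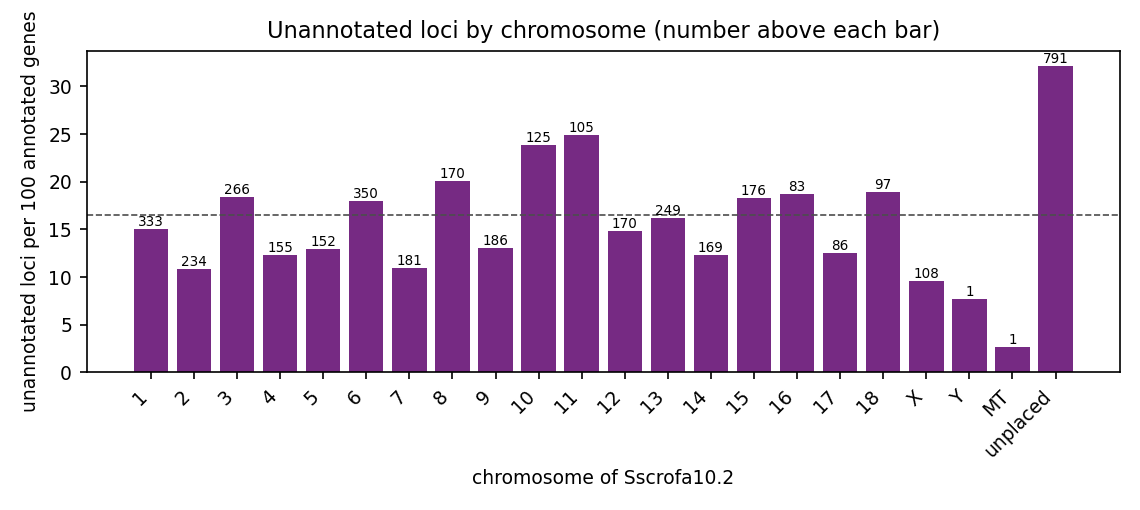
Unannotated loci per 100 annotated genes (y axis) on each chromosome of Sscrofa10.2 and on unplaced sequences (x axis), with the number of loci above each bar and the ratio over the whole table, 16.5, as a dashed line. Unplaced sequences stand highest at 32.1, followed by chromosomes 11 and 10, and the X chromosome lies below the dashed line at 9.64.

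Nearly all of these loci lay outside annotated genes, and many lay just beside one. Of the 4188 loci, 3849 were on a sequence that also holds an annotated gene. The intervals of 12 overlapped an annotated gene, and 1418 (33.9%) had one within 5 kb. The median gap was 10496 bases. Among the 1418, 420 lay upstream of the gene on the opposite strand, 353 upstream on the same strand, 344 downstream on the opposite strand and 289 downstream on the same strand. In 256 loci the start was within 1 kb of the start of the nearest annotated gene on the opposite strand, the head-to-head layout of genes that can share a promoter region. Loci also lay beside each other, with 377 pairs on the same strand within 5 kb that involve 656 loci and may hold fragments of 1 transcript, so loci are not independent of each other. The sources used here do not state whether reads were counted by strand, and if they were not, reads of rows that overlap on opposite strands cannot be told apart.

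The table lists loci that arose in the authors' processing, whereas annotated genes are listed whether or not they were expressed, so the shares detected are not alike in kind. More than 3 counts in any library were found for 3839 loci (91.7%), and in all 7 libraries for 1825 (43.6%), where the corresponding shares of annotated genes were 67.9% and 47.1%. A total of 147 loci had no count in any library. Between 2664 and 2917 loci had more than 3 counts in a given library. They took 4.38%, 3.76% and 4.52% of all counts in the pXEN lines, 3.91% and 3.96% in the nESC lines and 4.27% and 4.04% in the pESC lines. The mean share was 4.22% ± 0.407 (SD, n = 3) in the pXEN lines and 4.05% ± 0.159 (SD, n = 4) in the ESC lines. The groups overlapped, with a difference of 0.176 percentage points (two-sided exact permutation test, p = 0.514). This design cannot give a p below 0.0571, so the test does not bear on whether the shares differ. Without pXEN line 2, the pXEN line with the lowest share, the difference was 0.407 percentage points and the groups no longer overlapped. Without pXEN line 3 it was 0.0244, and for the share of summed FPKM it was 0.389.

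Differences between the cell types were tested with edgeR's quasi-likelihood test on all rows that passed its filter on low counts, with Benjamini-Hochberg adjustment over the 17447 rows and calls at an adjusted p below 0.05. The filter kept 2810 of the 4188 loci, and a locus with counts in a single cell type could pass only through that type. Between pXEN cells and nESCs, 1408 of the 2810 (50.1%) were called, 719 higher and 689 lower in pXEN cells, beside 54.5% of all rows tested, 28.3% higher and 26.2% lower. Between pXEN cells and pESCs, 1186 (42.2%) were called, 587 higher and 599 lower, beside 48.3% of all rows, 23.9% higher and 24.4% lower. Between pESCs and nESCs, 806 (28.7%) were called, 475 higher and 331 lower in pESCs, beside 32.2% of all rows, 19.0% higher and 13.3% lower. At matched abundance the difference was not uniform. Above 4 log2 CPM, 64.4% of the loci and 62.1% of annotated genes were called between pXEN cells and nESCs, 52.9% and 53.6% between pXEN cells and pESCs, and 42.3% and 36.4% between pESCs and nESCs. From 2 to 4 log2 CPM the shares were 50.4% and 52.3%, 40.9% and 47.5%, and 30.7% and 31.9%. From 0 to 2 log2 CPM the shares were 44.7% and 43.4%, 38.7% and 40.7%, and 21.9% and 24.7%. Below 0 they were 46.4% and 40.0%, 41.2% and 45.7%, and 26.7% and 29.6%. Upper-quartile scaling shifted the median log2 fold change of all rows between pXEN cells and nESCs by −0.16, and 44.5% of the calls were then higher in pXEN cells, against 51.1%. Without pXEN line 2 the calls numbered 1467 (53.2% of the loci tested, beside 60.0% of all rows) against nESCs and 1290 (46.8%, beside 55.4%) against pESCs. Between pESCs and nESCs, which do not include that line, they then numbered 1058 (38.4%, beside 43.8%). In a fit of only pESCs and nESCs they numbered 1017 (41.3% of the loci tested, beside 44.4% of all rows), so this comparison depends on the pooled spread. Without nESC line 1 or 2, or pESC line 1 or 2, the calls between pESCs and nESCs numbered 431, 503, 396 and 396, and 17.2%, 20.2%, 16.2% and 16.2% of all rows were then called. Without pESC line 2 those between pXEN cells and pESCs numbered 779 (25.2%), beside 30.2% of all rows.

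The unannotated loci tested had lower counts than annotated genes, and their fitted fold changes were larger. The median abundance of those tested was 1.79 log2 CPM, against 4.23 for annotated genes. The median size of the log2 fold change, regardless of direction, was 1.07 for unannotated loci and 0.78 for annotated genes between pXEN cells and nESCs. It was 0.87 and 0.64 between pXEN cells and pESCs, and 0.75 and 0.52 between pESCs and nESCs. A call together with a log2 fold change above 3 in either direction was found for 22.8%, 19.6% and 11.6% of the loci in the 3 comparisons, against 15.3%, 13.2% and 8.74% of annotated genes. These sizes include 92 loci restricted to pXEN cells, 37 to nESCs and 79 to pESCs, which passed the filter only through their own type and so had to differ, and neither their part nor that of abundance was tested. Spliced and unspliced loci were called about equally often, 50.6% and 48.6% between pXEN cells and nESCs.

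Some loci had counts in a single cell type. A locus was termed restricted when every library of the type had at least 10 counts and every other library had at most 3. By this rule 92 unannotated loci (2.20%) were restricted to pXEN cells, where 0.959% of all rows met the same rule. For pESCs there were 86 (2.05%), beside 0.976% of all rows, and for nESCs 37 (0.883%), beside 0.332% of all rows. The shares among annotated genes were 0.754% for pXEN cells, 0.798% for pESCs and 0.241% for nESCs, and the loci were 92 of the 283 rows restricted to pXEN cells. A further 73 loci (1.74%, beside 1.05% of all rows) were present in both ESC types and absent from pXEN cells, 48 (1.15%, beside 0.796%) were present in pXEN cells and pESCs alone, and 1 in pXEN cells and nESCs alone. All libraries had at least 10 counts for 1413 loci (33.7%, beside 41.5% of all rows), and 349 loci (8.33%, beside 28.7%) did not exceed 3 counts in any library. With 0 counts demanded in the other types, the restricted loci numbered 48 for pXEN cells (1.15%, beside 0.40% of all rows), 11 for nESCs (0.263%, beside 0.0915%) and 38 for pESCs (0.907%, beside 0.356%). Because the rule uses the counts, these numbers are a description and have no test.

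**Figure D2:**
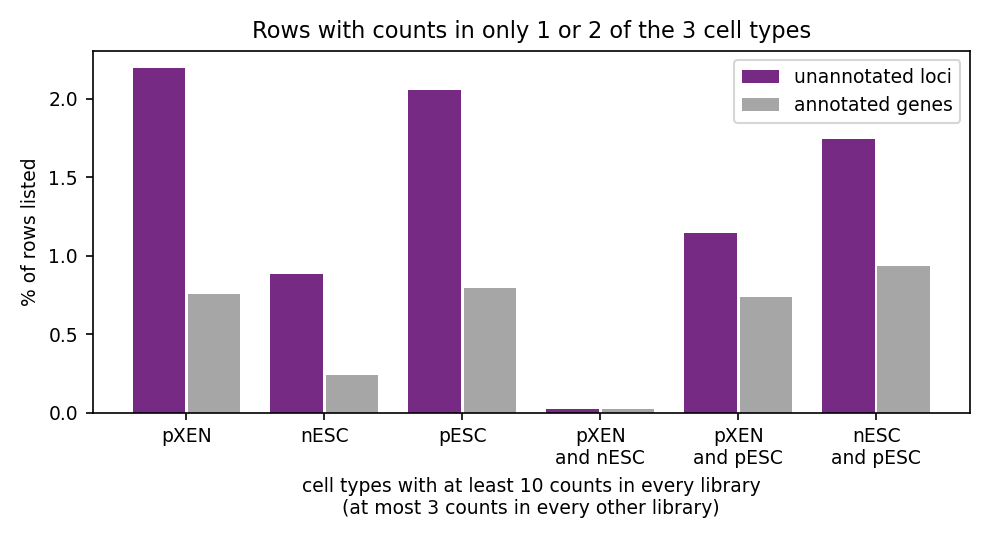
Share of unannotated loci (purple) and of annotated genes (grey), in % of the rows of each kind (y axis), with at least 10 counts in every library of the cell types named on the x axis and at most 3 counts in every other library. Unannotated loci stand higher in each class of 1 cell type, with 2.20% against 0.754% for pXEN cells alone.

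The most abundant locus restricted to pXEN cells lay on the X chromosome (chrX:105901850-105963552, plus strand, 5357 bases, spliced). It had 5142, 4790 and 5664 counts in the pXEN lines and 0 in all 4 ESC libraries. Its mean FPKM was 90.4 ± 11.0 (SD, n = 3), and its level was at least 1683-fold higher than in nESCs and at least 1881-fold higher than in pESCs, with 3 counts per library as the floor. Its peptide matched a serine-rich and transmembrane domain. The nearest coding gene is DCX, 42700 bases away on the opposite strand, which encodes the microtubule protein doublecortin and had 64 to 362 counts in every library. DCX thus had counts in the ESC lines where the locus had none.

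Next came a locus of 16610 bases on chromosome 6 (chr6:65594234-65615222, minus strand). It had 1803, 890 and 2463 counts in the pXEN lines and 0 in the ESC lines, at least 564-fold above nESCs. The nearest coding gene, FBXO2, 45327 bases away on the same strand, had 75, 244 and 86 counts in the pXEN lines and 3 to 6 in the ESC lines.

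A locus with a retroviral domain followed on an unplaced sequence (GL895528.1:29760-33362, minus strand, 2171 bases). Its domain is that of the retroviral aspartyl protease, the enzyme that cuts the gag polyprotein. It had 996, 635 and 1118 counts in the pXEN lines and 0 in every ESC library, at least 299.7-fold above nESCs and at least 335-fold above pESCs. The separation of pXEN from ESC libraries at these loci follows from the rule that chose them.

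A locus of 9560 bases on chromosome 15 (chr15:44657534-44696642, plus strand) had 560, 69 and 672 counts in the pXEN lines and 0 in the ESC lines. Line 2 was far below the other 2. The nearest gene, VEGFC, which encodes a lymphatic growth factor, is 45703 bases away on the opposite strand and had 155, 92 and 147 counts in the pXEN lines and 8 to 26 in the ESC lines.

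**Figure D3:**
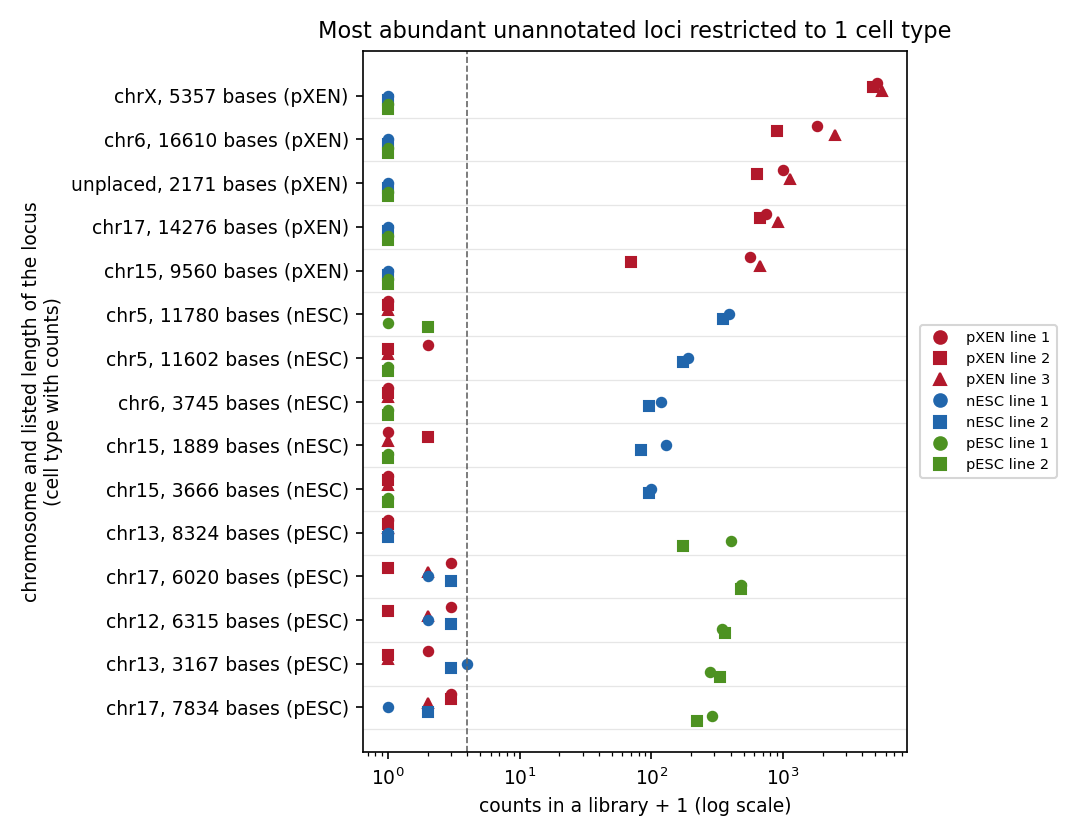
Counts per library plus 1 on a log scale (x axis) for the 5 most abundant loci restricted to each cell type (y axis, named by chromosome and listed length, the type in brackets), with pXEN in red, nESC in blue and pESC in green, a circle, square or triangle for lines 1, 2 and 3, and a dashed line at 3 counts. Each locus has its own type far to the right and every other library at or left of the dashed line, and the chromosome 15 locus of 9560 bases has pXEN line 2 well below lines 1 and 3.

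The loci restricted to nESCs had fewer counts. The most abundant 2 lie on the same strand of chromosome 5, 11780 bases (chr5:100065523-100122543) and 11602 bases (chr5:99951394-99962995) long, and their nearest coding genes are 697572 and 744195 bases away. The first had 384 and 350 counts in the nESC lines, 0 in the pXEN lines and 0 and 1 in the pESC lines, at least 126-fold above pXEN cells. The second, unspliced and with a reverse transcriptase domain as LINE elements carry, had 188 and 174 counts in the nESC lines, 1 in pXEN line 1 and 0 elsewhere. At the end of chromosome 6 a locus of 3745 bases (chr6:88113-92155, plus strand) had 117 and 94 counts and 0 elsewhere. A locus of 1889 bases on chromosome 15 (chr15:88908264-89208231, minus strand) had 128 and 83 counts, and 1 of 3666 bases inside its span on the same strand (chr15:89130326-89133991) had 99 and 95, so these are not independent. SP3, the nearest coding gene to both, had 329 to 442 counts in every library.

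A further locus restricted to nESCs, chosen for its domain after its values were seen, carries a helix-loop-helix DNA-binding domain (chr15:52773962-52776279, minus strand). It had 84 and 67 counts in the nESC lines and 0 in the others. Between its flanking genes PRIMPOL and SLC25A4, RefSeq names ACSL1 and HELT in the newer assembly Sscrofa11.1, of which HELT is a helix-loop-helix transcription factor, and the table has no row of that name. The names RefSeq gives between flanking genes are candidates by order only, and no coordinates were transferred.

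In pESCs the most abundant restricted loci were spliced and lay between 31150 and 388430 bases from the nearest coding gene. On chromosome 17 a locus of 6020 bases (chr17:34839962-34875504, minus strand) had 475 and 475 counts in the pESC lines and at most 2 in any other library. On chromosome 12 a locus of 6315 bases (chr12:58884229-58898736, plus strand) had 345 and 363, with at most 2 elsewhere. On chromosome 13 a locus of 3167 bases (chr13:77233437-77289729, plus strand) had 275 and 332, with at most 3 elsewhere, and its nearest coding gene, FGD5, had 137 and 160 counts in the pESC lines and 0 in the other 5 libraries. On chromosome 17 a second locus, of 7834 bases (chr17:49805726-49827313, plus strand), had 286 and 221, with at most 2 elsewhere, while CHD6, 268590 bases away, had 827 to 1420 counts in every library. The other restricted locus of chromosome 13, of 8324 bases (chr13:95008159-95038666, plus strand), had 400 and 172 counts in the pESC lines and 0 in the other 5 libraries. Its nearest coding gene is ZIC1, a zinc finger factor of the neural plate, with 2500 and 2067 counts in the pESC lines, 713 and 286 in the nESC lines and 0 in the pXEN lines.

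Some unannotated loci lay near genes used as markers of these lineages. Of 53 marker genes in the table, 15 (28.3%) had such a locus within 50 kb, beside 24.7% of all 15845 annotated gene symbols. Beside FOXA2, a pioneer factor of endoderm, a locus of 14276 bases lies 2073 bases downstream on the same strand (chr17:34007001-34051386, minus strand). It had 735, 668 and 906 counts in the pXEN lines and 0 in every ESC library, at least 249-fold above nESCs. FOXA2 had 2069, 2558 and 2351 counts in the pXEN lines and at most 3 in any ESC library. Whether the locus is an unannotated end of FOXA2 or a transcript of its own was not tested.

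Beside SOX17, which drives endoderm differentiation, lay 2 loci. The nearer (chr4:83943733-83965619, minus strand, 8439 bases) lies upstream, 2595 bases from the gene and on the opposite strand. It had 388, 133 and 443 counts in the pXEN lines, 2 and 0 in the nESC lines and 1 and 0 in the pESC lines. The ratio of pXEN to nESC levels was 309.6, with a 95% counting interval of 85.5 to 2560.5. The other (chr4:83940232-83943646, plus strand), named after its values were seen, had 143, 48 and 134 counts in the pXEN lines and at most 2 elsewhere. SOX17 itself had 6923, 6364 and 7281 counts in the pXEN lines, 0 in the nESC lines and 21 and 9 in the pESC lines. At both loci pXEN line 2 was the lowest of the pXEN lines, while SOX17 varied little among them.

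Beside LAMA1, a laminin chain of the basement membrane, a short locus (GL894351.1:363-2089, minus strand) had 7, 6 and 4 counts in the pXEN lines and at most 1 elsewhere and was not tested. Beside DPPA5, a locus 88 bases upstream on the opposite strand (chr1:59323307-59324781, plus strand) had 33, 33 and 34 counts in the pXEN lines, 0 and 1 in the nESC lines and 7 and 4 in the pESC lines. DPPA5, an RNA-binding protein gene known from pluripotent cells, had 19, 28 and 25 counts in the pXEN lines and at most 6 elsewhere.

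**Figure D4:**
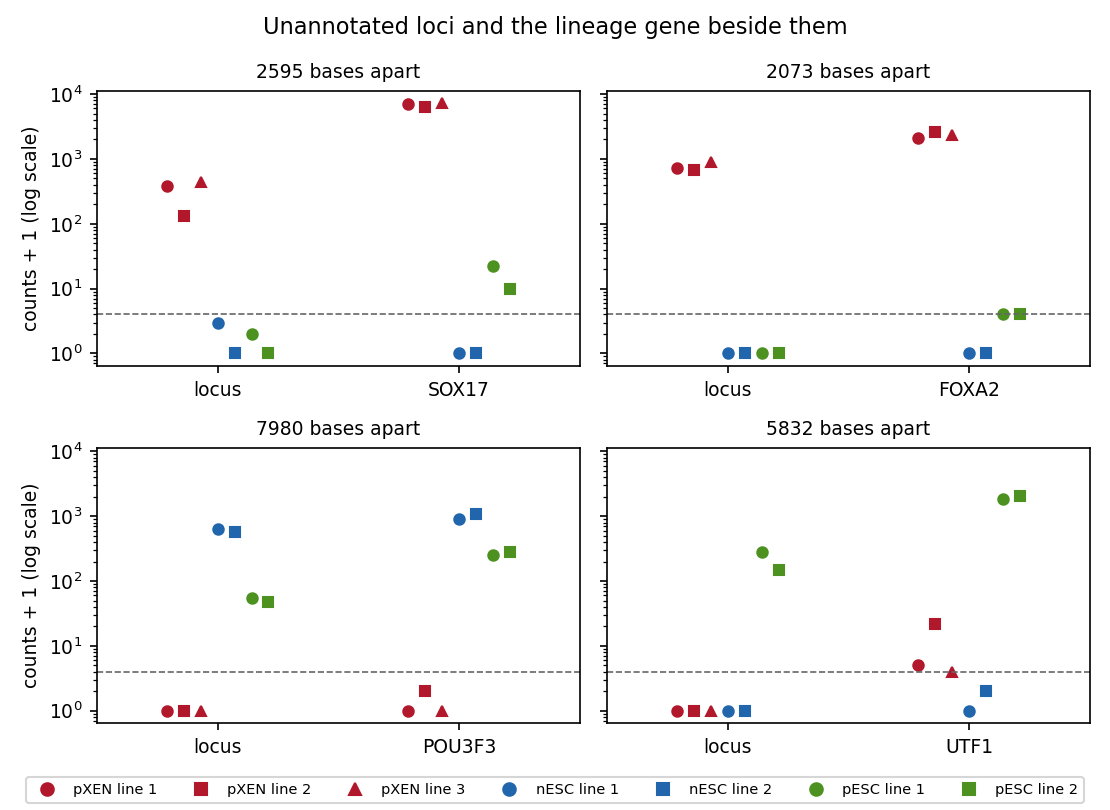
Counts plus 1 on a log scale (y axis) of 4 unannotated loci and of the coding gene beside each (x axis), per library, with pXEN in red, nESC in blue, pESC in green, a circle, square or triangle for lines 1, 2 and 3, a dashed line at 3 counts and the gap in bases above each panel. The loci beside SOX17 and FOXA2 have their counts in pXEN lines, the one beside POU3F3 in ESC lines, and the one near UTF1 in pESC lines, as the genes beside them do.

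Other loci near lineage genes had their counts in the ESC lines. Downstream of UTF1, a chromatin factor of pluripotent cells, a locus lies 5832 bases away on the same strand (chr14:153161586-153167270, plus strand). It had 280 and 149 counts in the pESC lines and 0 in the other 5 libraries. UTF1 had 1828 and 2043 counts in the pESC lines, 0 and 1 in the nESC lines and 4, 21 and 3 in the pXEN lines. The same locus lies 2314 bases from the gene of miR-202 on the opposite strand. Near SOX2, a locus (chr13:128970677-128972295, minus strand) had 9 and 33 counts in the nESC lines, 1 and 3 in the pESC lines and 0 in the pXEN lines, although SOX2 had more counts in pESCs than in nESCs.

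Some neighbours of lineage genes followed the gene in part or had few counts. A locus 1722 bases downstream of ZIC2 on the same strand (chr11:76109724-76111006, plus strand) had 13, 17 and 10 counts in the pXEN lines, 4 and 0 in the nESC lines and 21 and 14 in the pESC lines, while ZIC2 had 3725 to 6649 counts in the pXEN lines and 1268 to 2144 in the ESC lines. Against nESCs both were higher in pXEN cells, the locus by 2.81 ± 0.90 (log2, SE, edgeR adjusted p = 0.0289, lost in 4 of the 17 alternatives) and ZIC2 by 1.95 (adjusted p = 0.000432). Against pESCs ZIC2 was higher by 1.58 (edgeR adjusted p = 0.00146), and the value of the locus was −0.12 ± 0.68 (adjusted p = 0.904). Near KLF5, a pluripotency and epithelial factor, a locus (chr11:49963982-49973440) had 5 counts in 1 nESC library and 0 elsewhere. Near ZIC1 and ZIC4, a locus of 438 bases (chr13:95468831-95469650, plus strand) had 18 and 10 counts in the pESC lines and 0 elsewhere, too few to be tested.

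Loci near GATA2, GATA3 and TFAP2A, factors of trophectoderm, had their highest counts in pESCs. The locus 3972 bases from GATA3 (chr10:69605320-69606626, plus strand) had 123 and 74 counts in the pESC lines, 13 and 38 in the nESC lines and 1, 12 and 3 in the pXEN lines, with a log2 fold change of −3.93 ± 0.78 (SE, edgeR adjusted p = 0.00407) for pXEN cells against pESCs. The locus 25690 bases from GATA2 (chr13:79639406-79642683, plus strand) had 31 and 34, 4 and 14, and 0, 2 and 0 in the same order of types. The locus 614 bases from TFAP2A (chr7:7547841-7549295, plus strand) had 52 counts in pESC line 2 and at most 3 in any other library. Near DNMT3B, a de novo DNA methyltransferase, a locus (chr17:41261501-41270226, plus strand) had 92 and 85 counts in the pESC lines and 11 to 32 in the others, and DNMT3B had 13110 and 12849 counts in the pESC lines and 848 to 1823 in the others.

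The largest fitted differences outside the restricted loci also included neighbours of developmental genes. Beside POU3F3, a POU factor of neural cells, a locus of 682 bases lies 7980 bases downstream on the opposite strand (chr3:52023632-52030533, minus strand). It had 638 and 577 counts in the nESC lines, 53 and 47 in the pESC lines and 0 in the pXEN lines, which put nESCs at least 209-fold above pXEN cells. Its log2 fold change in pESCs against nESCs was −3.74 ± 0.22 (SE), with an adjusted p of 0.00016 in edgeR. POU3F3 had 908 and 1068 counts in the nESC lines, 250 and 282 in the pESC lines and 0, 1 and 0 in the pXEN lines.

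Just downstream of the gene of miR-9-3, a microRNA known from neural progenitors, a spliced locus begins 10 bases away on the same strand (chr7:59924288-59954163, plus strand). It had 304 and 417 counts in the nESC lines, 32 and 17 in the pESC lines and 0 in the pXEN lines. In the region of DLK1, which is known to be imprinted, a locus of 5305 bases lies 2304 bases from an annotated SNORD112 gene and 21158 bases from DLK1 (chr7:132143794-132164530, minus strand). It had 124 and 163 counts in the nESC lines, 649 and 254 in the pESC lines and 0 in all 3 pXEN lines, so it was at least 49.5-fold higher in nESCs and at least 142-fold higher in pESCs than in pXEN cells. DLK1 had 42 and 4 counts in the pESC lines and 0 elsewhere.

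Other loci at 0 in pXEN cells lay far from coding genes or on unplaced sequences. A locus on chromosome 16 (chr16:84598739-84655564, plus strand) had 491 and 493 counts in the nESC lines and 172 and 262 in the pESC lines, and its nearest coding gene is IRX4, 903449 bases away. An unspliced locus on an unplaced sequence (GL893854.2:211-1553, plus strand) had 432 and 464 counts in the nESC lines and 113 and 110 in the pESC lines. On chromosome 6 (chr6:91040243-91124955, plus strand) a locus had 307 and 245 counts in the pESC lines and 9 and 5 in the nESC lines, and on chromosome 1 (chr1:4906219-4942150, minus strand) another had 262 and 276 in the pESC lines and 64 and 32 in the nESC lines. The naming rule asks for groups that do not overlap in the comparison concerned, so that separation at these loci follows from it.

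At the other end, a locus of 4118 bases on chromosome 8 (chr8:3773867-3780344, plus strand) had 6106, 4389 and 10082 counts in the pXEN lines, 304 and 267 in the pESC lines and 0 in the nESC lines. Its log2 fold change between pXEN cells and pESCs was 4.87 ± 0.41 (SE, edgeR adjusted p = 0.000124), and pXEN cells stood at least 2233-fold above nESCs. The nearest coding gene, PSAPL1, 100403 bases away, had no count in any library. A long locus on chromosome 3 (chr3:67799261-67945855, plus strand) had 140, 156 and 134 counts in the pXEN lines, 446 and 423 in the pESC lines and 0 in the nESC lines. On chromosome 9 (chr9:68077156-68107940, plus strand) a locus had 19, 10 and 25 counts in the pXEN lines, 449 and 350 in the pESC lines and 0 in the nESC lines. These 3 loci too were named by a rule that asks for groups without overlap.

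A further 3 loci were lowest in pESCs. Beside CDKN2B, which encodes a cyclin-dependent kinase inhibitor, a locus lies 122 bases downstream on the opposite strand (chr1:223959044-223969525, minus strand), and RefSeq names P14ARF between its flanks CDKN2B and MTAP. It had 215 and 234 counts in the nESC lines, 4, 39 and 6 in the pXEN lines and 0 and 1 in the pESC lines. The ratio of nESC to pESC levels was 503, with a 95% counting interval of 89.8 to 19905. CDKN2B had 28 and 47 counts in the nESC lines, 0, 14 and 5 in the pXEN lines and 0 in the pESC lines.

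The only locus present in pXEN cells and nESCs alone (chr11:3807397-3813415, plus strand) carries a domain of unknown function, DUF1725, that is grouped with the LINE domains below. It had 62, 21 and 79 counts in the pXEN lines, 155 and 105 in the nESC lines and 3 and 2 in the pESC lines. WASF3, a regulator of actin 15833 bases upstream of it on the same strand, had 413 to 993 counts in the pXEN and nESC lines and 178 and 162 in the pESC lines. Upstream of PAF-AH, a phospholipase gene, a locus lies 1169 bases away on the same strand (chr7:48176058-48181231, minus strand). It had 146, 43 and 163 counts in the pXEN lines, 14 and 4 in the nESC lines and 0 in the pESC lines, and PAF-AH had 2498, 1784 and 3050 counts in the pXEN lines and 8 to 197 in the ESC lines. The call of this locus between pESCs and nESCs (edgeR adjusted p = 0.0488) was lost in 8 of the 17 alternatives.

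The unannotated loci with the highest FPKM carried domains of well known proteins. The highest mean in pXEN cells was that of a locus of 1053 bases with a collagen triple helix domain, between SLC19A1 and PCBP3 (chr13:218147496-218153497, minus strand). It had 12646, 8085 and 13268 counts in the pXEN lines, 61 and 56 in the nESC lines and 2385 and 2759 in the pESC lines. Its mean FPKM was 1010.2 ± 299.5 (SD, n = 3) in pXEN cells, 4.66 ± 0.159 (n = 2) in nESCs and 187 ± 10.5 (n = 2) in pESCs. The log2 fold change between pXEN cells and nESCs was 7.75 ± 0.34 (SE, edgeR adjusted p = 2.1e-06), whereas SLC19A1, a folate carrier gene, differed by 0.15 (adjusted p = 0.267).

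Also among the 3 highest in pXEN cells was a locus with the domain of the nucleosome-binding proteins HMG14 and HMG17 (chr13:213102730-213109812, minus strand), and RefSeq names HMGN1, the gene of HMG14, between its flanks BRWD1 and WRB. It had 10990, 11019 and 12117 counts in the pXEN lines, 7679 and 7256 in the nESC lines and 6364 and 7083 in the pESC lines, and rose in pXEN cells by 0.75 ± 0.10 (log2, SE) over nESCs (edgeR adjusted p = 0.000511). The median over 962 tested annotated genes of chromosome 13 was 0.48 in this comparison. Among the longest, a locus of 17909 bases (chr4:77318335-77637313, minus strand) has a domain of proteins that bind the sodium pump, and RefSeq names NKAIN3 between its flanks GGH and ASPH. It had 1315 and 1682 counts in the nESC lines, 192, 124 and 169 in the pXEN lines and 160 and 106 in the pESC lines, and was lower in pXEN cells than in nESCs by −3.06 ± 0.28 (log2, SE, edgeR adjusted p = 5.42e-05).

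Highest in both ESC types was a locus with a ribosomal protein S8 domain on an unplaced sequence (GL894597.1:117453-123298, plus strand). It had a mean FPKM of 1078 ± 49.0 (SD, n = 2) in nESCs, 1111 ± 111 (n = 2) in pESCs and 807 ± 159 (n = 3) in pXEN cells, and its call between pXEN cells and pESCs (edgeR adjusted p = 0.0499) was lost in 11 of the 17 alternatives. Next came 2 pieces with the domains of the glycolytic enzyme GAPDH, also on unplaced sequences (GL894812.1:1-661 and GL894823.1:1-670, both minus strand), and reads of near-identical copies may be split among such rows. They were lower in pXEN cells than in nESCs by −0.33 ± 0.10 and −0.36 ± 0.11 (log2, SE), calls that were lost in 7 and 6 of the 17 alternatives.

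Counted in reads rather than per length, a locus with an RNA recognition motif (chr18:50980486-50993648, plus strand) held 14275 to 19977 counts in every library, and was named after its values were seen. It lies between CBX3 and NFE2L3, and the order of RefSeq genes gave no name between these flanks. HNRNPA2B1, a splicing factor gene, has an annotated row on chromosome 15, with 460 to 724 counts per library. Whether the locus is related to that gene was not tested, and reads of near-identical copies may be split between rows.

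Among the loci that begin head to head with a gene, the most abundant had counts in every library. Beside SETD1B, a histone methyltransferase gene, a locus 80 bases away (chr14:32690549-32700058, plus strand) had 409, 320 and 489 counts in the pXEN lines, 1440 and 1329 in the nESC lines and 1107 and 1034 in the pESC lines. Both were lower in pXEN cells than in nESCs, the locus by −1.62 ± 0.19 (log2, SE, edgeR adjusted p = 0.0002) and SETD1B by −0.63 (adjusted p = 0.00293). The locus was lower in pXEN cells than in pESCs by −1.11 ± 0.19 (log2, SE, edgeR adjusted p = 0.00182), whereas SETD1B was higher by 0.37 (adjusted p = 0.0399). Beside OIP5, a centromere factor, a locus (chr1:145025377-145057381, minus strand) with the domain of the nucleolar and spindle-associated protein had 467 to 801 counts. Beside the gene of miR-365-1, an unspliced locus (chr3:29976894-29981612, plus strand) had 506 to 643 counts and no call in any comparison. The remaining 2, beside ANAPC2 (GL896260.1:9886-10895) and PLEKHJ1 (chr2:77041418-77050000), had 325 to 841 and 260 to 620 counts.

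Across the pairs within 5 kb, unannotated loci tended to be called in the direction of their annotated neighbour. Both members were tested in 850 pairs. Between pXEN cells and nESCs, 398 of these loci were called, and the neighbour was called in the same direction for 239 (60.1%), in the opposite direction for 43 (10.8%) and not called for 116. Between pXEN cells and pESCs, 317 loci were called, with 190 neighbours (59.9%) in the same and 25 (7.89%) in the opposite direction. Between pESCs and nESCs, 193 loci were called, with 91 neighbours (47.2%) in the same and 13 (6.74%) in the opposite direction. For comparison, 3710 annotated genes were set against their nearest annotated gene within 5 kb, with overlaps left out. Genes nearest to each other enter this set from both sides. The same direction was found for 40.6%, 33.2% and 29.3% of the called genes and the opposite direction for 18.3%, 16.9% and 9.27%. Without overlapping pairs 843 locus pairs were left, with 60.2%, 60.1% and 47.1% of the called loci in the same direction. Across the 850 pairs Pearson's r of the log2 fold changes was 0.616, 0.634 and 0.564 in the 3 comparisons, and 0.308, 0.267 and 0.271 across the annotated pairs. Pairs share libraries and are not independent, so these values are given without a test.

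**Figure D5:**
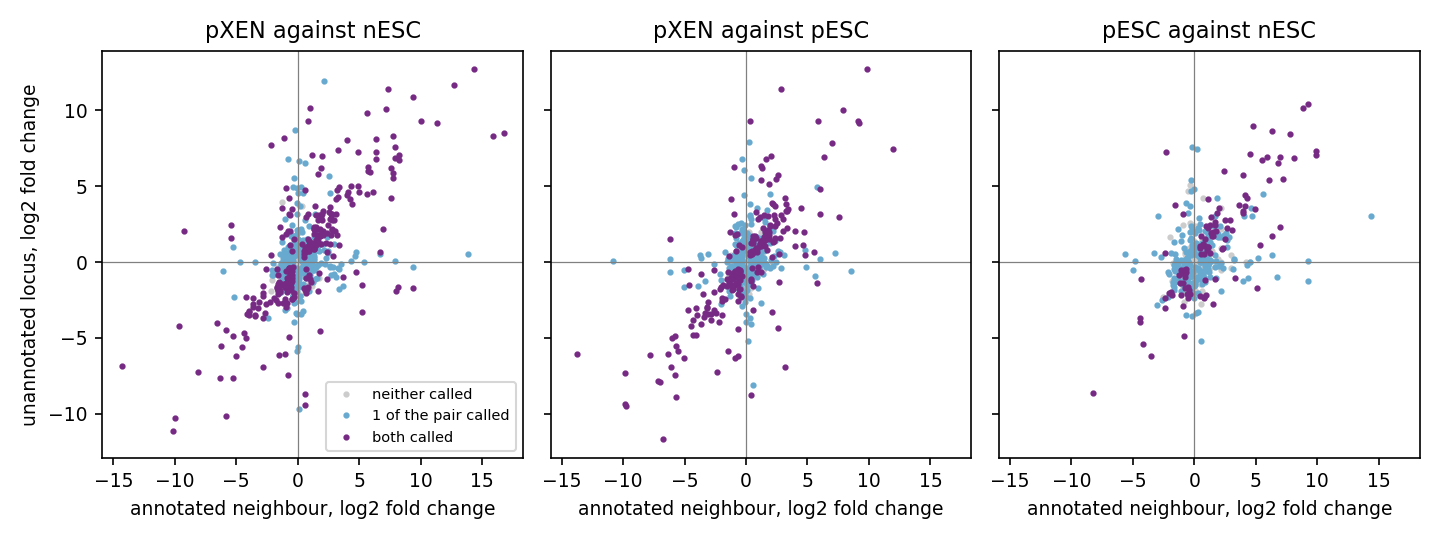
Log2 fold change of the unannotated locus (y axis) against that of the annotated gene within 5 kb (x axis) for 850 pairs in each of the 3 comparisons, with pairs in purple where both were called, blue where 1 was called and grey where neither was. Most purple points lie at the lower left and the upper right, and 43 of the 398 loci called between pXEN cells and nESCs had a neighbour called in the opposite direction.

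The layout of the pair, that is side and strand, was compared without a test. Between pXEN cells and nESCs the neighbour was called in the same direction for 62.6% of 107 called loci upstream on the opposite strand and 59.8% of 87 upstream on the same strand. The shares were 61.7% of 115 downstream on the opposite strand and 55.3% of 85 downstream on the same strand. For annotated pairs they were 39.6%, 45.9%, 35.2% and 46.5% in the same order of layouts. The order of layouts differed between pXEN cells and pESCs, with 51.1% of 90, 60.9% of 64, 67.4% of 92 and 61.2% of 67 called loci, beside 32.2%, 37.2%, 27.5% and 40.9% for annotated pairs. Between pESCs and nESCs the downstream layout on the same strand went the other way, with 31.8% of 44 called loci against 35.6% for annotated pairs. Loci on the same strand as their neighbour include candidates for missing ends of that gene, and their part in these shares was not tested.

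The loci were also described by the domain families of their peptides. The families were grouped, and the loci named in them chosen, after the tables were seen, and they carry no test of their own. Of 10 tested loci with calcium-binding EGF or TB domains, the modules of fibrillins and latent TGFβ-binding proteins, 7 were higher and 1 lower in pXEN cells than in nESCs, with a median log2 fold change of 2.86 beside −0.04 over all loci tested. Of all rows tested in this comparison, 28.3% were higher and 26.2% lower. Against pESCs, pXEN cells had 3 higher and 4 lower (23.9% and 24.4% of all rows), with a median of 0.10. In pESCs, 7 were higher and 1 lower than in nESCs (19.0% and 13.3% of all rows). A neighbouring pair of them on chromosome 6 (chr6:44591966-44603016 and chr6:44603307-44609921, both plus strand) lies between PLD3 and ITPKC, where the genes RefSeq names include LTBP4, a latent TGFβ-binding protein gene. The first had 272, 318 and 459 counts in the pXEN lines, 38 and 73 in the nESC lines and 1695 and 1651 in the pESC lines. The second had 219, 223 and 332, 62 and 94, and 1304 and 1294 counts in the same order. Further along the same strand, another member (chr6:44775787-44779080) had 145, 103 and 215, 12 and 32, and 752 and 650 counts. Whether these are pieces of 1 gene was not tested, so the counts of this family may stand for fewer genes. By contrast, a locus 53984 bases downstream of the fibrillin gene FBN1 on the same strand (chr1:137357551-137391697) had 20, 148 and 31 counts in the pXEN lines, 315 and 392 in the nESC lines and 400 and 437 in the pESC lines. FBN1 had 33, 289 and 51, 443 and 669, and 853 and 827 counts in the same order, with pXEN line 2 highest of the pXEN lines at both.

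Collagen domains were found in 12 loci, of which 9 were tested. In pXEN cells 2 were higher and 3 lower than in nESCs, a share called near the 54.5% of all rows. Against pESCs, 2 were higher and 5 lower (23.9% and 24.4% of all rows), and between pESCs and nESCs 5 were higher and 2 lower (19.0% and 13.3% of all rows). Between COL6A5 and CAPN7 a locus with collagen and von Willebrand factor domains (chr13:2246578-2296024, minus strand) had 1227 and 1112 counts in the nESC lines, 44 and 62 in the pESC lines and 0, 0 and 4 in the pXEN lines. A second between the same genes (chr13:2059496-2081217, plus strand) had 181 and 135, 5 and 3, and no counts in the same order of types. On chromosome 5 (chr5:81531927-81554440, minus strand) a locus had 2693 and 3270 counts in the pESC lines, 31 and 57 in the nESC lines and 15, 108 and 35 in the pXEN lines.

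Cadherin domains were found in 12 tested loci, of which 6 were lower and 1 higher in pXEN cells than in nESCs and 8 lower and 1 higher than in pESCs, where 26.2% and 24.4% of all rows were lower. Between pESCs and nESCs 3 were higher and 2 lower, beside 19.0% and 13.3% of all rows. Among them are loci in the protocadherin cluster on chromosome 2, cell adhesion genes best known from neurons. Near PCDHB6 a locus (chr2:148932762-148938886, plus strand) had 7, 11 and 14 counts in the pXEN lines, 73 and 84 in the nESC lines and 52 and 62 in the pESC lines, and PCDHB6 had 1, 6 and 4, 41 and 60, and 40 and 66 in the same order.

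Of 22 tested loci with immunoglobulin or fibronectin type III domains, 12 were higher and 3 lower in pESCs than in nESCs, beside 19.0% and 13.3% of all rows. In pXEN cells 10 were higher and 5 lower than in nESCs (28.3% and 26.2% of all rows), and 4 higher and 11 lower than in pESCs (23.9% and 24.4%). A locus of 12525 bases (chr1:128620745-128766130, plus strand) had 12886 and 15541 counts in the pESC lines, 2453 and 3451 in the nESC lines and 4242, 4111 and 4402 in the pXEN lines. RefSeq names PRTG, the gene of the immunoglobulin family protein protogenin, between its flanks NEDD4 and PYGO1. In the opposite direction, a locus 1149 bases downstream of the neuronal adhesion gene NRCAM on the same strand (chr9:118689979-118729155, minus strand) had 2384 and 2467 counts in the nESC lines, 342 and 303 in the pESC lines and 27, 48 and 16 in the pXEN lines. NRCAM had 622 and 905, 167 and 149, and 10, 36 and 17 in the same order.

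Domains of mobile elements formed a further family. Of 26 tested loci with LINE or reverse transcriptase domains, 8 were higher and 9 lower in pXEN cells than in nESCs and 9 higher and 3 lower than in pESCs, with 5 higher and 7 lower in pESCs than in nESCs. The shares of all rows higher and lower were 28.3% and 26.2%, 23.9% and 24.4%, and 19.0% and 13.3% in these 3 comparisons. The summed FPKM of the 37 loci of this family lay between 56.9 and 78.4 in every library. Of 37 tested loci with zinc finger, KRAB or SCAN domains, a family that includes repressors of such elements, 6 were higher and 8 lower in pXEN cells than in nESCs, 4 higher and 8 lower than in pESCs, and 3 higher and 5 lower in pESCs than in nESCs, beside the same shares of all rows. Retroviral gag, protease or envelope domains were found in 7 loci, of which 6 were tested. In pXEN cells 4 of them were higher than in nESCs and 2 were higher than in pESCs, beside 28.3% and 23.9% of all rows, and 2 were higher in pESCs than in nESCs. Their summed FPKM was 52.8 to 73.3 in the pXEN lines, 16.3 to 17.0 in the nESC lines and 27.1 to 31.6 in the pESC lines, of which the locus restricted to pXEN cells gave 39.6 ± 12.3 (SD, n = 3) there. A locus with gag and protease domains (chr12:47483322-47486915, minus strand) had 28, 57 and 41 counts in the pXEN lines and 3 to 5 in the ESC lines. Another with gag domains (chr17:36964020-36974935, plus strand) had 548, 678 and 470 counts in the pXEN lines, 492 and 339 in the nESC lines and 905 and 841 in the pESC lines, and its call between pXEN cells and nESCs was lost in 8 of the 17 alternatives.

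Of the 86 loci restricted to pESCs, 19 had a domain. The 3 restricted loci described next were chosen after their values were seen and stand for no group. A locus with a homeodomain lies between TAC4 and DLX3, where RefSeq names DLX4 (chr12:26173745-26176232, plus strand). It had 150 and 91 counts in the pESC lines and at most 3 in any other library. DLX3 had 175 and 173 counts in the pESC lines and 0 in the other 5 libraries. A locus with a Wnt domain lies between WNT3 and GOSR2, where RefSeq names WNT9B (chr12:17781152-17824223, plus strand), although the table lists a row named WNT9B on an unplaced sequence with at most 1 count. It had 67 and 58 counts in the pESC lines and at most 2 elsewhere. Far upstream of OTX2, a factor of epiblast and head development, a locus without a domain (chr1:206733760-206737412, plus strand, 86553 bases away) had 83 and 38 counts in the pESC lines and at most 3 elsewhere. OTX2 had 1893 to 3277 counts in the pXEN lines, 96 and 209 in the nESC lines and 1198 and 1658 in the pESC lines.

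The gene order of the newer assembly gave candidate names for a part of the loci. Flanking coding genes with a unique RefSeq symbol were found on both sides of 3404 loci, and in 3152 of these the flanks lay on the same sequence of Sscrofa11.1 within 2 Mb. Between the flanks of 1174 loci (37.2% of the 3152) RefSeq names at least 1 gene whose symbol is not in the table, and 733 loci had exactly 1 such gene. Symbols that differ between annotations count as missing here, as for PAF-AH, where RefSeq names PLA2G7. No genome sequence of Sscrofa10.2 was used here, so sequences of the loci were not read.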

How the data were processed

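Total RNA of 7 porcine cell lines was sequenced as 1 rRNA-depleted directional library per line, and lines of 1 type served as replicates. The submitters' processing notes name HISAT2 2.0.5, featureCounts 1.5.0-p3, edgeR 3.22.5 and the build Sscrofa10.2. The authors deposited raw counts per row and FPKM values, counts scaled by listed length and by a library total. How the unannotated loci were assembled, and the strand setting of counting, are not given in the sources used here. Columns were matched to samples by name.

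Counts were tested with edgeR 4.0.16 in R 4.3.3 (quasi-likelihood, TMM, filterByExpr, all 7 libraries in 1 model, group as the only factor). Adjusted p values are Benjamini-Hochberg over 17447 rows. The test was run on simulated data with known fold changes. Alternatives used DESeq2 1.42.0 and limma 3.58.1 on log2(FPKM + 1) and log2(FPKM + 0.1). Libraries held 10408164 to 12995720 counts. Gaps between loci and genes came from the listed intervals. Neighbour names used RefSeq genes of Sscrofa11.1 for order only.

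Loci were named by rules: the 3 with the highest mean FPKM per type, the 5 highest and 5 lowest called fold changes per comparison at a mean of at least 2 log2 CPM without overlap between groups, the 5 most abundant restricted loci per type, the locus nearest to each marker gene within 50 kb, the 3 longest spliced loci and the 5 most abundant head-to-head loci. Others are said to be chosen after their values were seen. Domain families were grouped, and the loci named within them chosen, after the tables were seen. The members and lists were chosen with earlier results of these data known. A few of the loci so chosen are not reported here.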

Additional observations from a re-analysis of the deposited data

How the results depend on the processing

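The counts of calls moved by less than 1.5 times under upper-quartile and RLE scaling, DESeq2, limma on either pseudocount, no filter, a log2 fold change above 1, a fit of only the 2 types and the replicate block. Asking for at least 10 counts in every library leaves out any locus absent from a type, and left 653 calls (331 higher, 322 lower) between pXEN cells and nESCs, 488 (262 higher, 226 lower) between pXEN cells and pESCs and 394 (202 higher, 192 lower) between pESCs and nESCs. These are 46.2%, 34.5% and 27.9% of the 1413 loci left, beside 54.6%, 46.1% and 31.6% of all 12261 rows left. Leaving out each library in turn gave 1023 to 1467 calls (533 to 752 higher, 490 to 715 lower), 779 to 1290 calls (348 to 658 higher, 419 to 632 lower) and 396 to 1058 calls (274 to 579 higher, 115 to 479 lower) in the same order. The lowest count against nESCs came without nESC line 1, that against pESCs without pESC line 2, and the lowest between the ESC types, 396, without pESC line 1 or line 2. Between pESCs and nESCs, leaving out nESC line 1 or 2 gave 431 and 503 calls. The replicate numbers did not pair the samples (correlations of same-numbered lines between −0.0089 and 0.0442). The replicate block gave 1184, 954 and 682 calls, 42.1%, 34.0% and 24.3% of the loci tested, beside 47.4%, 40.1% and 28.9% of all rows.

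With at least 20 counts asked for presence, 59 loci were restricted to pXEN cells (1.41%, beside 0.664% of all rows). For nESCs there were 16 (0.382%, beside 0.152%) and for pESCs 66 (1.58%, beside 0.647%). With 5 counts they numbered 133 (3.18%, beside 1.39%), 67 (1.60%, beside 0.644%) and 123 (2.94%, beside 1.45%) in the same order of types. With 0 counts asked for absence they numbered 48 (1.15%, beside 0.40%), 11 (0.263%, beside 0.0915%) and 38 (0.907%, beside 0.356%). Annotated genes within 1 kb and 50 kb were found for 677 and 3046 loci, as the wider limit must. For the 77 loci chosen by the rules or later, 153 calls gave 2486 values under the alternatives, none of which changed sign and 125 of which no longer passed. The part of feeder RNA, strand and depth in these results was not tested. Of the 4188 loci, 2810 had counts enough to be tested.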

Other observations

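The pXEN lines differed among themselves at the unannotated loci. Line 2 was more than 2-fold away from the mean of lines 1 and 3 at 517 of 2810 tested loci (18.4%), 172 higher and 345 lower, against 1799 of 14637 annotated genes (12.3%), 1106 higher and 693 lower. The loci of chromosome 13 were lower in line 2 as a group. Their median difference from lines 1 and 3 was −0.41 on the log2 scale over 167 loci, and −0.38 over 962 annotated genes of the chromosome. Over all 3 pXEN lines these loci stood above nESCs by a median of 0.35 and above pESCs by 0.32 (log2), and the annotated genes by 0.48 and 0.41. On chromosome 16 the median log2 fold change of pXEN cells against nESCs was −1.09 over 49 unannotated loci, with 9 higher and 22 lower, and −0.71 over 249 annotated genes, with 48 higher and 124 lower, where 28.3% and 26.2% of all rows were higher and lower. Against pESCs the medians were −0.35 and −0.02, and for pESCs against nESCs they were −0.23 and −0.53. These medians carry no test.

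The only unannotated locus on the Y chromosome (chrY:932294-941805, plus strand) had 11 and 3 counts in the nESC lines, 1, 2 and 0 in the pXEN lines and 0 in the pESC lines. Annotated genes of the Y chromosome summed to 0, 36 and 3 counts in pXEN lines 1, 2 and 3 and to at most 1 in any ESC library.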
